A study of Mus musculus with 18 samples.

Results

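Serine, one-carbon and proline synthesis was followed through 9 genes taken by their symbols from the 55469 genes of each deposited table: Phgdh, Psat1 and Psph of serine synthesis, Shmt1 and Shmt2, the mitochondrial folate enzymes Mthfd2 and Mthfd1l, and Aldh18a1 and Pycr1 of proline synthesis. All 9 passed the filter on low values (a mean normalized count of at least 10) in each of the 4 comparisons. RNA was taken from the prostate, its ventral and lateral lobes, of male mice on the strain labelled C56NL/6N, with 3 libraries in each of 6 groups. WT, KO and A537T mice were taken at 10 and at 30 weeks of age, and the question was how loss or mutation of ELAC2, an enzyme that trims the 3′ ends of tRNA precursors in the nucleus and the mitochondria, altered the prostate transcriptome.

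WT mice carried Elac2+/+. KO mice were homozygous for an Elac2 allele whose exon 8 was cut out by Cre under Pb, the probasin promoter, so the deletion was limited to the cells in which that promoter works, and the stroma, vessels and other cells of the lobes kept the gene. A537T mice were homozygous for a substitution of threonine for alanine in ELAC2, made by genome editing and carried in every tissue. In bulk tissue such as this, fewer cells of a type and less RNA per cell cannot be told apart.

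Serine is made from the glycolytic intermediate 3-phosphoglycerate by PHGDH, PSAT1 and PSPH acting in turn. The SHMT enzymes split serine into glycine and a one-carbon unit carried on folate, SHMT2 inside mitochondria and SHMT1 mainly in the cytosol, and MTHFD2 and MTHFD1L then turn the mitochondrial unit into formate, which leaves for purine, thymidylate and methionine synthesis. Proline is made from glutamate by ALDH18A1 and then a PYCR enzyme in mitochondria. Several of these genes are known targets of ATF4, a transcription factor of the integrated stress response that is active when mitochondrial gene expression fails.

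The RefSeq promoter windows of these genes on GRCm38.p6, from 250 bases before to 50 bases after the start, were searched on both strands for the letters TGATGNAA, the core that C/EBP and ATF4 pairs recognise, and for CACGTG, an E-box of the kind that MYC family proteins bind. The first was found in 3.97% of all 32851 promoter windows and in 1 of the 9 genes, Pycr1, where it began 103 bases before the start. The second was found in 7.15% of all windows and in 1 of the 9 genes, Aldh18a1, 59 bases before the start. Both stretches are shown because they are the only matches among the 9 genes, with the match in capitals, and both are written on the gene's own strand, the minus strand, at chr11:120643820-120643875 for Pycr1 and chr19:40588493-40588546 for Aldh18a1.
Pycr1: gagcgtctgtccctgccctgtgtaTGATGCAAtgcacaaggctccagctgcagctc
Aldh18a1: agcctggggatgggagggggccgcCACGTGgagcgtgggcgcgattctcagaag
Both motifs had no match in the windows of Phgdh, Psat1, Psph, Shmt1, Shmt2, Mthfd2 and Mthfd1l, which says only that these letters are not there.

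The libraries held 6569642 to 11225281 reads recovered from the normalized counts, with a median of 8586877. All 11 prostate epithelial markers were above 0 in all 18 libraries, but their summed share of the counts was uneven, at 10 weeks 3.70 to 13.4% for the WT, 0.492 to 3.88% for the KO and 7.91 to 10.4% for the A537T libraries, and at 30 weeks 7.58 to 14.8%, 4.85 to 14.3% and 4.52 to 14.8%. Sbp, which encodes a secreted protein, ranged from 42.8 to 113985 CPM (normalized counts scaled to a total of 1000000 in a library) and the epithelial keratin Krt8 from 140 to 241 CPM. Elac2 itself had a mean normalized count of 115 ± 4.09 in KO against 144 ± 21.1 in WT at 10 weeks and 124 ± 26.5 against 166 ± 24.7 at 30 weeks (SD, n = 3), with a log2 fold change of -0.31 and -0.43 and an adjusted p by limma of 0.325 and 0.478. Counts over the whole gene also include transcripts that lack exon 8 alone, and other cells of the lobes keep the allele. The part of either in these values was not tested. The libraries were not alike in tissue content. Transcripts of 8 seminal vesicle secretory genes, from a gland that the dissection removed, made up 4.64 to 10.3% of the counts in 8 libraries, which were WT library 10AF, all KO libraries at 10 weeks, KO libraries 4AF and 6AF and A537T libraries 7AF and 9AF, and at most 1.76% in the other 10. This split at 4% was chosen after the values were seen. Tgm4 and 9530053A07Rik, secreted by the anterior lobe, ranged from 0.000650 to 5.93% of counts, and 20 skeletal muscle genes took 3.92 to 12.7% of the WT, 0.0585 to 2.05% of the KO and 1.55 to 4.36% of the A537T counts at 10 weeks, and at most 0.0725% at 30 weeks.

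On a scale per transcript length, as median CPM per kilobase of merged exons over the 18 libraries, Phgdh stood first at 40.2 and Aldh18a1 second at 14.7. A middle group of Shmt2 at 7.06, Pycr1 at 7.00, Mthfd2 at 6.59, Shmt1 at 5.75 and Psat1 at 5.20 followed, and the ranges of these 5 genes over the libraries overlapped throughout. Over the WT libraries alone the medians of this group came in another order, Pycr1 at 8.71, Shmt1 at 7.21, Mthfd2 at 6.52, Shmt2 at 5.88 and Psat1 at 4.36. Psph at 1.15 and Mthfd1l at 0.949 were lowest, with ranges of 0.774 to 2.34 and 0.266 to 1.84 that also overlapped. The genes differed in how much they varied from library to library. The highest library exceeded the lowest 8.27-fold for Mthfd2, 8.23-fold for Psat1, 6.92-fold for Mthfd1l and 5.42-fold for Shmt2, but 2.18-fold for Phgdh and 1.75-fold for Aldh18a1.

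**Figure D1:**
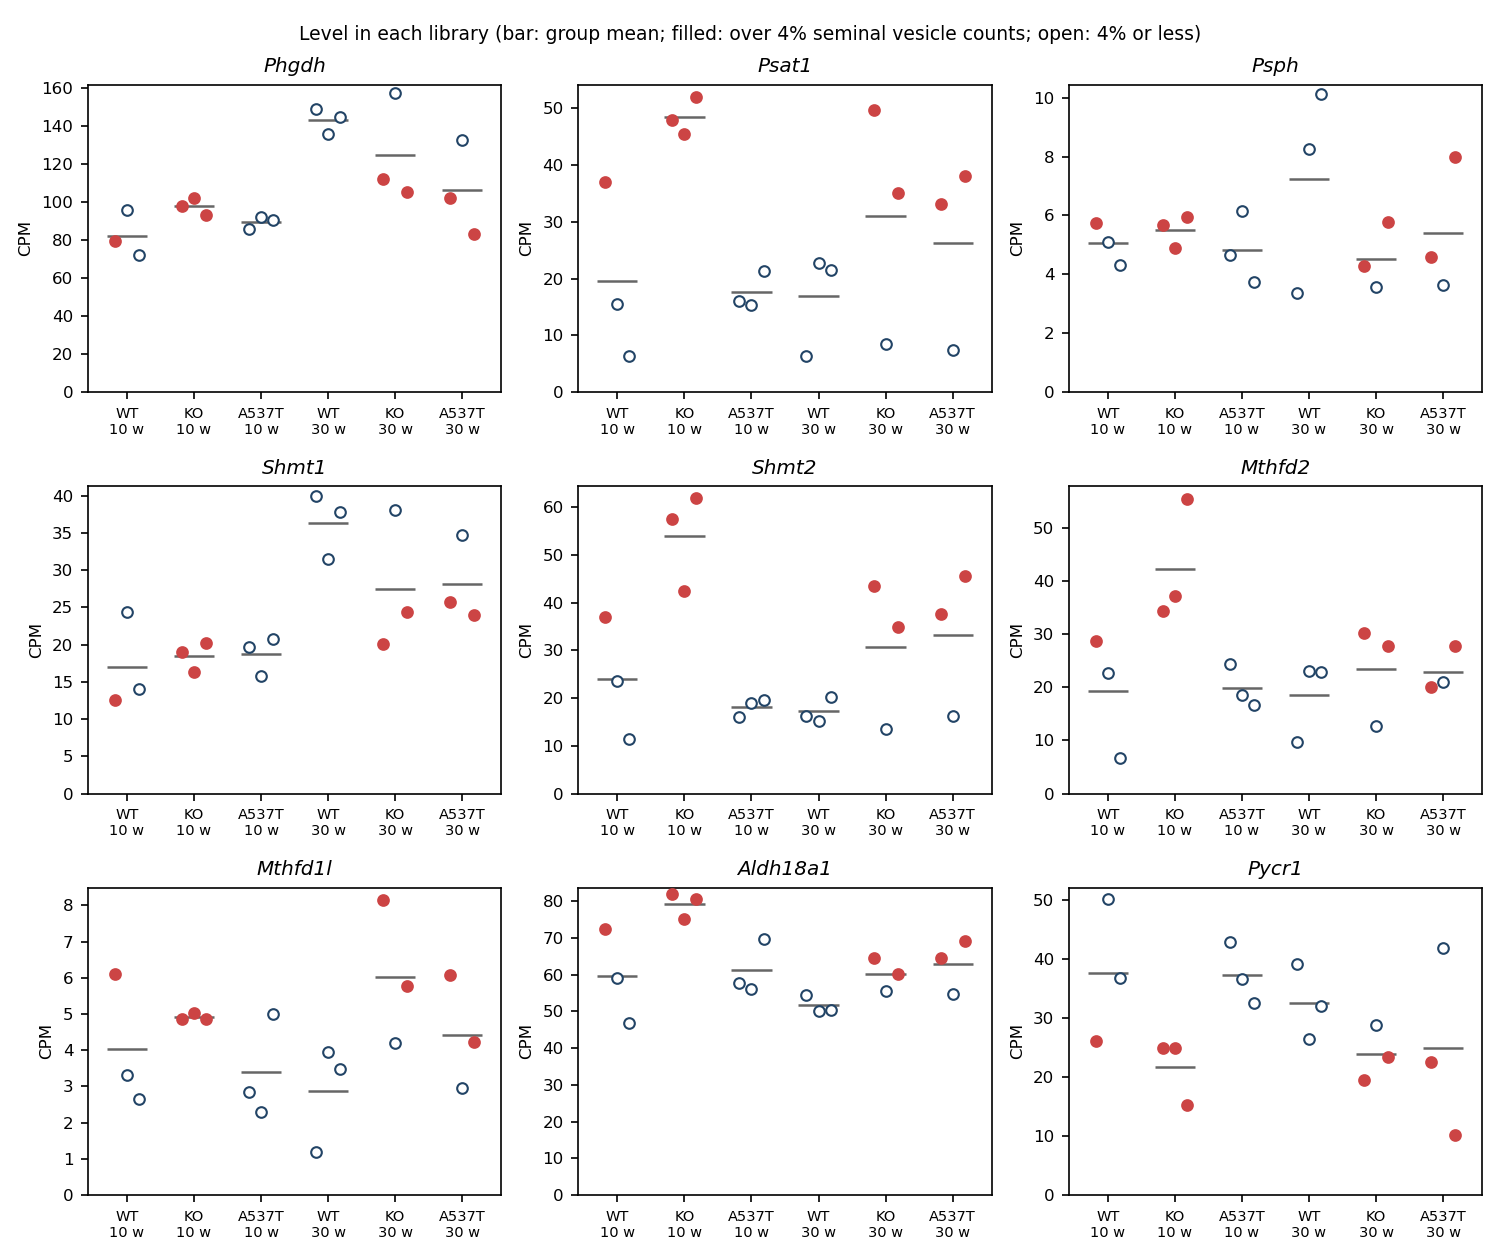
CPM of each of the 9 genes in each of the 18 libraries, by genotype and age in weeks (w). Points are libraries, bars are group means, and filled points are the 8 libraries with over 4% of counts from seminal vesicle genes. Psat1 and Shmt2 are higher in all filled points than in all open ones, and Pycr1 is lower in all filled points than in all open ones.

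In the comparison of KO with WT at 10 weeks no gene passed the adjusted threshold of 0.05 by limma, of 15089 tested, while 2930 genes (19.4%) had an unadjusted p under 0.05. Of the 9 genes, 4 were among these, namely Psat1, Shmt2 and Mthfd2 with higher levels in KO, against 7.97% of all genes tested, and Pycr1 with lower levels, against 11.5%. The 3 KO and the 3 WT libraries did not overlap for 5 of the 9 genes, these 4 and Aldh18a1, against 26% of all genes tested, with 4 higher in KO against 11.7% and 1 lower against 14.3%. The median log2 fold change of the 9 genes was 0.16, against -0.0061 over all genes tested.

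Of the serine synthesis genes at 10 weeks, Phgdh, the first and committed enzyme of the route, had normalized counts of 634, 815 and 746 in the WT libraries 10AF, 11AF and 12AF, and of 729, 833 and 697 in the KO libraries 13AF, 14AF and 15AF. The groups overlapped, with a log2 fold change of 0.05 (95% interval -0.29 to 0.38, adjusted p by limma of 0.873). Psat1, the aminotransferase of the second step, stood at 296, 132 and 65.3 in the same WT libraries and at 357, 370.0 and 389.8 in KO. All KO libraries lay above all WT libraries, and the WT libraries were spread over more than the whole gap between the group means. The log2 fold change of Psat1 was 1.43 ± 0.49 (SE), with an adjusted p of 0.203 by limma. Psph, the phosphatase of the last step, ranged from 43.3 to 46.0 in WT and from 39.8 to 44.6 in KO, with a log2 fold change of -0.08 (adjusted p by limma of 0.827).

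Shmt2, the mitochondrial hydroxymethyltransferase, had normalized counts of 296, 202 and 118 in WT and 429, 345 and 465 in KO at 10 weeks. The groups did not overlap, and the highest WT value was again that of 10AF. Its log2 fold change was 1.09 ± 0.33 (SE), with an adjusted p of 0.185 by limma. Shmt1, its cytosolic counterpart, stood at 101, 208 and 145 in WT and at 141, 133 and 152 in KO, with a log2 fold change of -0.03 and wide overlap. Mthfd2, the mitochondrial dehydrogenase and cyclohydrolase, stood at 230, 192 and 69.4 in WT and at 255, 302 and 416 in KO, without overlap, with a log2 fold change of 1.12 ± 0.45 (SE) and an adjusted p of 0.244 by limma. Mthfd1l, the mitochondrial formate synthetase, overlapped, at 27.5 to 48.9 in WT and 36.1 to 41.0 in KO.

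The proline genes differed in sign. Pycr1, the reductase of the last step, had normalized counts of 209, 426 and 379 in WT and 185, 203 and 114 in KO, so that all KO libraries were lower, and WT library 10AF lay just above the highest KO library. Its log2 fold change was -0.99 ± 0.33 (SE), with an adjusted p of 0.198 by limma. Aldh18a1, which makes the precursor of proline from glutamate, stood at 581, 504 and 487 in WT and 610.0, 614 and 605 in KO, without overlap and with a log2 fold change of 0.22 ± 0.12 (SE, adjusted p by limma of 0.326). The 3 KO values of Aldh18a1 had an SD of 4.46 against 50.3 in WT.

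WT library 10AF lay on the side of KO for each of Psat1, Shmt2, Mthfd2, Aldh18a1 and Pycr1. Of the WT libraries at this age it had the largest seminal vesicle share, 4.64%, against 6.55 to 10.3% in KO and at most 1.76% in the other WT libraries. The prostate epithelial markers together took 3.70% of its counts, against 12.5 and 13.4% in WT libraries 11AF and 12AF and 0.492 to 3.88% in KO, and their part in these differences was not tested. Without it limma called 2886 genes (19.2%), and among them were Psat1 at a log2 fold change of 1.99 (adjusted p of 0.0214), Shmt2 at 1.40 (adjusted p of 0.0241) and Pycr1 at -1.30 (adjusted p of 0.0272). Library 10AF was singled out for lying on the side of KO, so its removal widens these differences by construction. It also leaves only WT libraries with a seminal vesicle share of at most 1.76%. With any other single library left out, none of the 9 genes was called. With the seminal vesicle level as a covariate in limma, the log2 fold change was 0.68 for Psat1, 0.58 for Shmt2, 0.30 for Mthfd2 and -0.86 for Pycr1, and with the skeletal muscle level it was 0.99, 0.50, 0.60 and -0.35, with adjusted p of at least 0.810 in each case. All KO libraries and only 1 WT library at 10 weeks were above 4%, so that genotype and seminal vesicle content cannot be told apart at this age. Anterior lobe transcripts divided alike, at 5.27% in 10AF and 3.38 to 5.89% in KO, against 0.304 and 0.000650% in 11AF and 12AF. Skeletal muscle transcripts did not overlap, at 3.92 to 12.7% in WT and 0.0585 to 2.05% in KO. Genotype cannot be told apart from these contents either. DESeq2 on the recovered reads called 715 genes (4.74%) and none of the 9, and edgeR called none at an adjusted p under 0.05 and 2806 genes at an unadjusted p under 0.05.

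In A537T at 10 weeks, with the same WT libraries as controls, none of the 9 genes had an unadjusted p under 0.05 by limma and none was free of overlap, against 6.43% and 11.9% of the 15131 genes tested. The median of the 9 was -0.07. Psat1 was at 330, 145 and 71.4 in WT and at 143, 133 and 167 in A537T, and Shmt2 at 305, 203 and 119 in WT and at 143, 164 and 154 in A537T. For both genes the A537T libraries lay together within the wide range of WT, and their seminal vesicle share was 0.0374 to 0.191%. The log2 fold changes, with 95% intervals, were -0.037 (-1.21 to 1.14) for Psat1, -0.34 (-1.10 to 0.41) for Shmt2, 0.02 (-1.05 to 1.09) for Mthfd2 and -0.07 (-0.75 to 0.60) for Pycr1. Phgdh at -0.06 (-0.39 to 0.26) and Aldh18a1 at -0.11 (-0.42 to 0.21) had narrower intervals. The KO values of Psat1, Shmt2, Mthfd2, Pycr1 and Aldh18a1 at this age lay outside these intervals. The KO intervals of all these genes overlapped the A537T ones, for example 0.27 to 2.60 for Psat1 and 0.05 to 2.19 for Mthfd2. The lines share their WT libraries and the difference between KO and A537T was not tested. The remaining genes were Shmt1 at 0.07, Psph at -0.19 and Mthfd1l at -0.32. No gene passed the adjusted threshold by limma, with 973 at an unadjusted p under 0.05, and edgeR gave 0 and 1100, while DESeq2 called 90 genes (0.595%) and none of the 9.

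**Figure D2:**
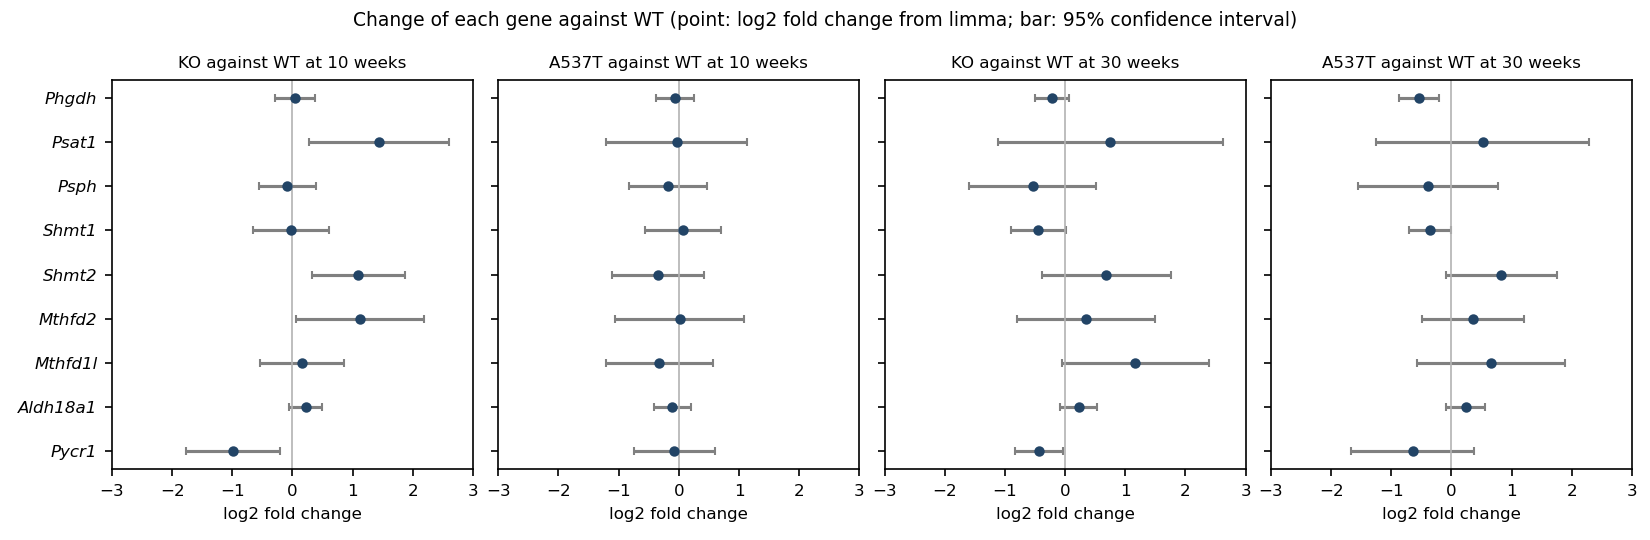
Log2 fold change of the 9 genes in KO and A537T against WT at 10 and 30 weeks, as points with 95% confidence intervals from limma. In KO at 10 weeks the intervals of Psat1, Shmt2, Mthfd2 and Pycr1 exclude 0, and in A537T at 10 weeks none does. At 30 weeks those of Pycr1 in KO and of Phgdh and Shmt1 in A537T exclude 0. The intervals are not adjusted for the number of genes. Of all genes tested, 19.4%, 6.43%, 11% and 13.6% had an unadjusted p under 0.05 by limma in the panels from left to right. None passed the adjusted threshold.

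In KO at 30 weeks 1 of the 9 genes, Pycr1, had an unadjusted p under 0.05 by limma and groups without overlap, against 11% and 16.3% of the 14729 genes tested, or 5.41% and 8.41% where only lower levels in KO are counted, and no gene passed the adjusted threshold. Normalized counts of Pycr1 were 347, 247 and 281 in the WT libraries 1AF, 2AF and 3AF and 184, 237 and 221 in the KO libraries 4AF, 5AF and 6AF. All KO values were below all WT values by a small margin, with a log2 fold change of -0.44 ± 0.17 (SE, adjusted p by limma of 0.434). Psat1 and Shmt2 split the KO group. Psat1 was at 56.3, 212 and 190.1 in WT and at 472, 69.8 and 331 in KO, and Shmt2 was at 145, 143 and 178 in WT and at 413, 112 and 331 in KO. KO libraries 4AF and 6AF were above all WT libraries for both genes, and 5AF was below all WT libraries for Shmt2 and near the lowest for Psat1. The log2 fold changes were 0.75 ± 0.79 for Psat1 and 0.69 ± 0.46 for Shmt2 (SE), with adjusted p of 0.744 and 0.600 by limma.

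Mthfd2 followed the same division in KO at 30 weeks, at 86.8, 215 and 202 in WT and at 287, 104 and 263 in KO (log2 fold change 0.35). Phgdh and Shmt1 were divided the other way. Phgdh stood at 1321, 1266 and 1273 in WT and at 1063, 1297 and 993 in KO, and Shmt1 at 355, 295 and 333 in WT and at 191, 314 and 230.3 in KO, so that 5AF lay among the WT libraries for both, with log2 fold changes of -0.21 and -0.44 and adjusted p of 0.547 and 0.458 by limma. Aldh18a1, at 445 to 484 in WT and 459 to 615 in KO, and Mthfd1l, at 10.5 to 36.9 and 34.5 to 77.5, overlapped, with log2 fold changes of 0.22 and 1.17. Psph was at 29.8, 77.2 and 89.1 in WT and at 40.6, 29.4 and 54.7 in KO (log2 fold change -0.54). Library 5AF had a seminal vesicle share of 7.13e-05%, against 8.53% in 4AF and 6.32% in 6AF. Without 5AF limma called 944 genes (6.41%), and of the 9 genes Shmt2 was among them at 1.26 (adjusted p of 0.00966). Library 5AF had the lowest Shmt2 of the KO group, so its removal widens this difference by construction. The KO libraries then left, 4AF and 6AF, were both above 4%, while WT held at most 0.000335%, so genotype and seminal vesicle content cannot be told apart in that fit. With any other single library left out, none of the 9 genes was called. Without 4AF and 6AF instead, Shmt2 was at -0.46, Psat1 at -0.91, Mthfd2 at -0.58, Phgdh at 0.01 and Shmt1 at -0.06, on the assumption that the lone KO library varied as the WT libraries did. DESeq2 on the recovered reads called 285 genes (1.93%) and none of the 9, and edgeR called none at an adjusted p under 0.05 and 1752 at an unadjusted p under 0.05.

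In A537T at 30 weeks, again with the same WT libraries as controls as in KO, Phgdh and Shmt1 were the 2 of the 9 genes with an unadjusted p under 0.05 by limma, both lower, against 13.6% of the 14789 genes tested in either direction and 6.28% lower. Phgdh alone was free of overlap, against 18.6% of genes in either direction and 9.4% lower, and no gene passed the adjusted threshold. Phgdh was at 1376, 1318 and 1329 in WT and at 895, 1120.2 and 775 in the A537T libraries 7AF, 8AF and 9AF. All A537T libraries were lower, and 8AF was the nearest to WT. The log2 fold change was -0.54 ± 0.14 (SE), with an adjusted p of 0.272 by limma and of 0.0477 by DESeq2 on the recovered reads, where Phgdh was the 1 gene of the 9 among 476 called (3.22%). edgeR on the same reads gave Phgdh an adjusted p of 0.243 and called no gene, with 2167 at an unadjusted p under 0.05. Shmt1 stood at 342, 283 and 321 in WT and at 226, 293 and 223 in A537T, with a log2 fold change of -0.35 ± 0.15 (SE, adjusted p by limma of 0.365), and 8AF was within the WT range.

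Shmt2 in A537T at 30 weeks was at 141, 139 and 174 in WT and at 330.5, 137 and 426 in A537T, and Psat1 at 55.3, 209.9 and 188 in WT and at 290.3, 62.7 and 355 in A537T. Libraries 7AF and 9AF were above all WT libraries for both genes, and 8AF was at or near the lowest. The log2 fold changes were 0.83 ± 0.39 and 0.52 ± 0.75 (SE), with adjusted p of 0.400 and 0.777 by limma. Pycr1 was at 353, 250.02 and 287 in WT and at 197, 354 and 94.2 in A537T, so that 7AF and 9AF lay below all WT libraries and 8AF at the top of them (log2 fold change -0.65). Mthfd2 at 0.36, Aldh18a1 at 0.23, Mthfd1l at 0.66 and Psph at -0.39 overlapped. The seminal vesicle share was 7.24% in 7AF, 9.17% in 9AF and 7.99e-05% in 8AF. Without 8AF limma called 1224 genes (8.27%), with Shmt2 at 1.31 (adjusted p of 0.00964) and Phgdh at -0.69 (adjusted p of 0.0127) among them. Without 7AF and 9AF instead, which leaves 1 A537T library, Shmt2 was at -0.14, Psat1 at -1.04, Phgdh at -0.26, Shmt1 at -0.10 and Pycr1 at 0.27.

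The change against WT was then compared between the ages within each line, by a limma interaction. No gene passed the adjusted threshold in either line, with 1724 genes at an unadjusted p under 0.05 in KO and also 1724 in A537T, 12.1% of those tested in both. Phgdh in A537T was the 1 gene of the 9 with an unadjusted p under 0.05, with a change at 30 weeks 0.48 lower than at 10 weeks on the log2 scale (95% interval -0.90 to -0.05, adjusted p by limma of 0.360). Shmt2 in A537T had a difference of 1.17 (95% interval -0.05 to 2.40, adjusted p by limma of 0.433). In KO the largest differences were 1.00 for Mthfd1l (95% interval -0.38 to 2.39) and -0.77 for Mthfd2 (95% interval -2.38 to 0.84). Aldh18a1 in KO differed by 0.0016 (95% interval -0.37 to 0.37).

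Across all 18 libraries the levels of several genes divided with seminal vesicle content, a description that was chosen after the values were seen and has no test. In CPM, a level that sets the tables of both ages on 1 total, Psat1 was 33.1 to 51.9 in the 8 libraries above 4% and 6.30 to 22.7 in the other 10, and Shmt2 was 35.0 to 62.0 and 11.4 to 23.7. Both genes were thus higher in every library above 4% whatever its genotype, the WT library 10AF included. Pycr1 was lower in each, at 10.1 to 26.1 against 26.4 to 50.0. Mthfd2, at 20.0 to 55.4 against 6.70 to 24.4, Mthfd1l, at 4.23 to 8.15 against 1.18 to 5.01, and Aldh18a1, at 60.2 to 82.0 against 47.0 to 69.7, leaned higher with some overlap.

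**Figure D3:**
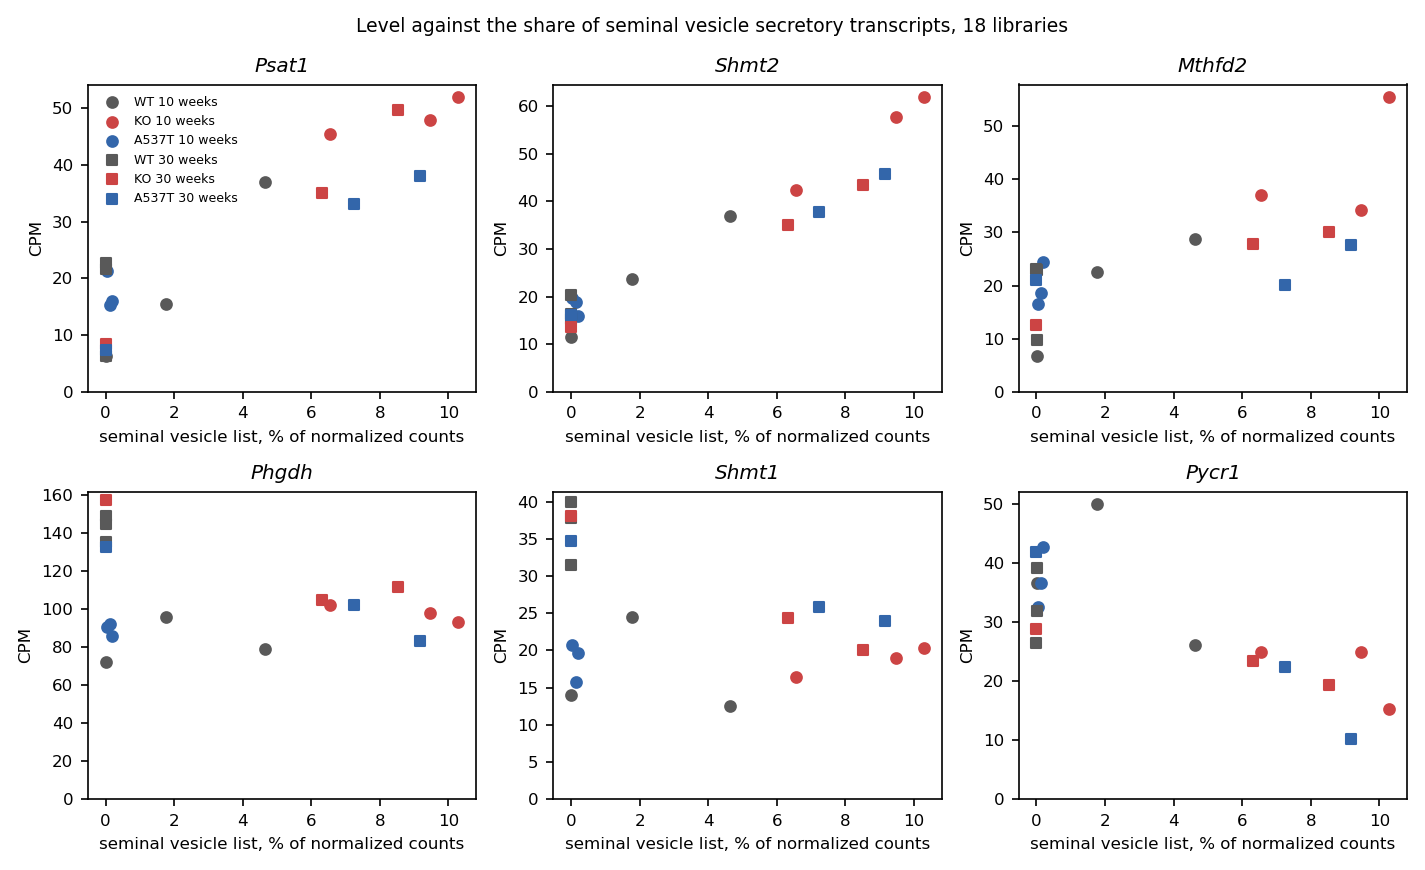
CPM of 6 of the genes (vertical axes) against the percentage of normalized counts from 8 seminal vesicle genes (horizontal axes) in the 18 libraries, by genotype (colour) and age (circles 10 weeks, squares 30 weeks). Shmt2 is at 35.0 or more only where the share is above 4%. At 30 weeks Phgdh and Shmt1 are lower in the libraries above 4%, all of which are KO or A537T.

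Phgdh and Shmt1 divided with seminal vesicle content at 30 weeks and not at 10 weeks. At 30 weeks Phgdh was 83.1 to 112 CPM in the 4 libraries above 4% and 133 to 157 in the other 5, and Shmt1 was 20.0 to 25.8 and 31.5 to 39.9. At 10 weeks the corresponding ranges were 79.1 to 102 and 72.0 to 95.6 for Phgdh and 12.6 to 20.2 and 13.99 to 24.4 for Shmt1, with overlap. At 30 weeks the libraries above 4% were all from KO or A537T mice and all WT libraries were under it. Genotype and seminal vesicle content were thus separated only by the mutant libraries 5AF and 8AF. Phgdh was 157 CPM in 5AF, against 135 to 149 in the WT libraries of the KO table. It was 133 in 8AF, below the 141 to 155 of the same WT libraries in the A537T table. Among WT libraries alone, none of which at 30 weeks held seminal vesicle transcripts above 0.000335%, Phgdh was 72.0 to 95.6 at 10 weeks and 135 to 149 at 30 weeks, and Shmt1 was 12.6 to 24.4 and 31.5 to 39.9. The ages come from separately normalized tables, and the WT libraries at 10 weeks also held the most skeletal muscle transcripts, whose part in this difference was not tested.

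Psat1 was lower still in some libraries. It was 6.30 to 8.46 CPM in 4 libraries, WT 12AF and 1AF, KO 5AF and A537T 8AF, which lacked seminal vesicle transcripts above 0.000808% and had at most 0.312% of counts from the anterior lobe genes. In the other 6 libraries at or under 4% Psat1 was 15.4 to 22.7, with anterior lobe shares of 0.304 to 5.93%. The libraries were grouped by Psat1 itself, at 10 CPM, so this is a description without a test. Above 4%, Psat1 was 33.1 in 7AF and 38.0 in 9AF, with anterior lobe shares of 0.125 and 0.0549%. In the rest of the libraries above 4% it was 35.0 to 51.9, with shares of 2.17 to 5.89%. Mthfd2 was also lowest in 12AF, 1AF and 5AF, at 6.70, 9.78 and 12.7 CPM, but was 21.0 in 8AF. Psph was lowest in 1AF, 5AF and 8AF, at 3.35, 3.56 and 3.65 CPM. Its highest values were 10.1 in WT 3AF and 8.25 in WT 2AF, with anterior lobe shares of 4.33 and 5.93%, and 7.98 in A537T 9AF, with a share of 0.0549%, and no other library was above 6.15.

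Ratios of isoenzymes within a library do not depend on how the libraries were scaled. The ratio of normalized counts of Shmt2 to Shmt1 was 2.94, 0.968 and 0.817 in WT and 3.04, 2.59 and 3.06 in KO at 10 weeks, and at 30 weeks 0.408, 0.484 and 0.536 in WT, 2.17, 0.358 and 1.44 in KO and, in the other table of that age, 1.46, 0.467 and 1.91 in A537T. In A537T at 10 weeks it was 0.812, 1.19 and 0.950. The ratio was thus 1.44 or more in each library above 4% seminal vesicle transcripts and at most 1.19 in the other 10. The counts are not corrected for length (3109 bases of merged exons for Shmt2 and 3883 for Shmt1), so a ratio of 1 does not mark equal levels. The mean log2 ratio was 1.12 higher in KO than in WT at 10 weeks (exact permutation p = 0.2, two-sided, n = 3 each), 1.13 higher in KO at 30 weeks (exact p = 0.4, n = 3 each) and 1.18 higher in A537T at 30 weeks (exact p = 0.3, n = 3 each), while in A537T at 10 weeks the difference was -0.41 (exact p = 0.9, n = 3 each). The smallest p that 3 against 3 libraries can give is 0.1.

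**Figure D4:**
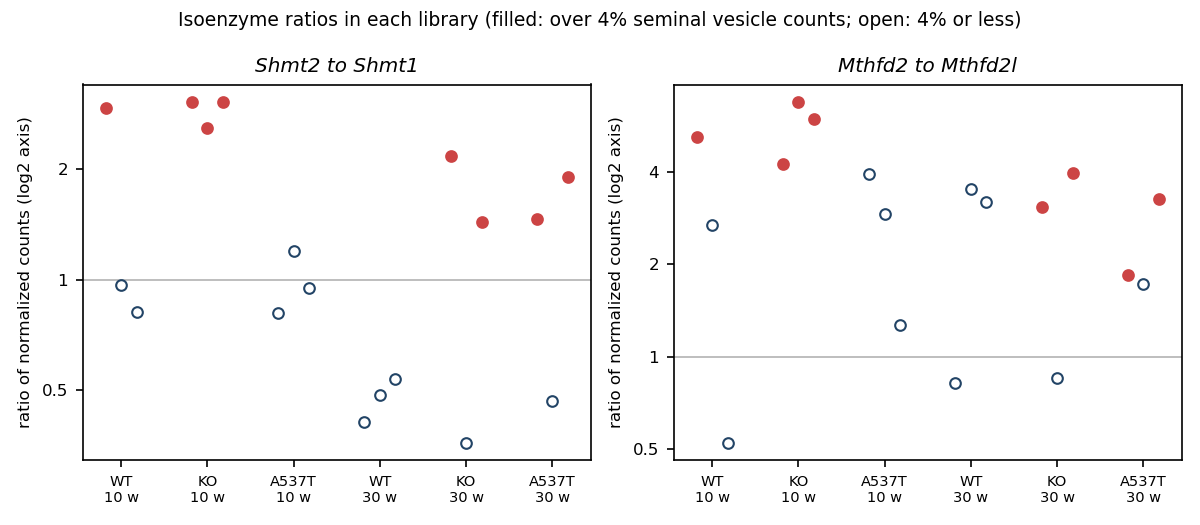
Ratio of normalized counts of 2 isoenzyme pairs in each library on a log2 axis, by genotype and age in weeks (w). Points are libraries, filled where over 4% of counts came from seminal vesicle genes, and the grey line marks equal counts. All filled points of Shmt2 to Shmt1, at 1.44 or more, lie above all open ones.

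The ratio of Mthfd2 to Mthfd2l, a paralogue with the same reaction, had the wider spread of the 2 ratios within WT at 10 weeks, from 0.523 to 5.22, and differed by 1.51 in KO at 10 weeks (exact p = 0.2, n = 3 each) and by at most 0.42 in the other comparisons. Of the 8 ratio tests none could reach 0.05.

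The wider pathways were taken as 4 lists. Of all genes tested, at 10 weeks 7.97% were higher and 11.5% lower for KO at an unadjusted p under 0.05 by limma, and 2.76% and 3.67% for A537T. At 30 weeks 5.56% were higher and 5.41% lower for KO, and 7.35% and 6.28% for A537T. The medians over all genes were -0.0061, 0.011, -0.0067 and -0.0052 in this order. The counts of each list are to be read against these shares. Of 20 other folate and one-carbon genes 19 were tested, and by limma at an unadjusted p under 0.05 the list held at 10 weeks 1 higher and 2 lower genes in KO and 0 and 1 in A537T, and at 30 weeks 0 and 1 in KO and 2 and 2 in A537T, with medians of -0.14, 0.019, -0.021 and -0.0088 in this order. None passed the adjusted threshold. Folr1, a folate receptor, had the largest positive log2 fold change in each comparison, 2.40 and 2.11 at 10 weeks and 1.74 and 1.53 at 30 weeks in KO and A537T, at low levels (13.2 ± 11.5 in WT and 42.8 ± 20.4 in KO at 10 weeks, SD, n = 3). At 30 weeks its mean in WT, 5.38 ± 4.80 in the KO table, was under the minimum of 10, so that it was tested there only through the mutant libraries (35.9 ± 31.1 in KO and 19.6 ± 16.6 in A537T, SD, n = 3). Mat2a, which makes the methyl donor S-adenosylmethionine, had the largest negative one in KO at 10 weeks, -2.08 ± 0.82 (SE, adjusted p by limma of 0.239), from 13127 ± 7447 in WT to 3513 ± 2357 in KO with overlap, and also in KO at 30 weeks, at -0.61. In A537T the lowest were Slc19a1, the reduced folate carrier, at -0.53 at 10 weeks and Slc46a1, the proton-coupled folate transporter, at -0.63 at 30 weeks.

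Of 11 genes of serine transport and use 9 were tested, and at 10 weeks 2 were higher in KO and 0 of either sign in A537T, and at 30 weeks 1 was lower in KO and 2 in A537T, at an unadjusted p under 0.05 by limma and none after adjustment. Their medians were -0.05, 0.06, -0.13 and -0.24. Sfxn1, which carries serine into mitochondria, was at 605 ± 26.7 in WT and 423 ± 99.6 in KO at 30 weeks (SD, n = 3), with a log2 fold change of -0.54 and an adjusted p by limma of 0.407, and its relative Sfxn3 had the largest positive value in both lines at that age, 0.52 and 0.37, and in KO at 10 weeks, 1.04. Slc1a4, a transporter of neutral amino acids including serine, was highest of the list in A537T at 10 weeks, at 1.03, and lowest at 30 weeks, at -0.73. Slc1a5 at -0.52 was lowest in KO at 10 weeks, and Serinc3 at -0.18 in A537T at 10 weeks.

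Of 12 genes of proline and ornithine metabolism 10 were tested, with 1 higher and 1 lower gene for KO and 1 higher for A537T at 10 weeks and none at 30 weeks at an unadjusted p under 0.05 by limma, none after adjustment, and medians of -0.12, -0.01, 0.04 and 0.12. Prodh, which begins proline breakdown, was highest at 10 weeks in both lines, 1.38 in KO (179.7 ± 129.6 in WT and 380.5 ± 50.0 in KO, SD, n = 3, adjusted p by limma of 0.244) and 0.75 in A537T. P4ha2 was lowest at 30 weeks at -0.49 and -0.56, and Aldh4a1 at 0.12 and P4ha1 at 0.24 were highest at 30 weeks.

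The list of ATF4 and 11 of its targets outside these pathways had a median of 0.49 in KO at 10 weeks, where 5 of 12 genes were higher and none lower at an unadjusted p under 0.05 by limma, beside 7.97% and 11.5% of all genes tested and a median of -0.0061. All KO libraries at this age held 6.55 to 10.3% seminal vesicle transcripts, so genotype and that content cannot be told apart for this list either. The median of the list was 0.17 in A537T at 10 weeks and, at 30 weeks, 0.16 for KO and 0.084 for A537T, where 0, 1 and 0 were higher and 0, 0 and 2 lower, the last of 11 tested. None passed the adjusted threshold. Atf4 mRNA was at 829 ± 50.4 in WT and 839 ± 26.6 in KO at 10 weeks (SD, n = 3), and its log2 fold changes in the 4 comparisons lay between 0.02 and 0.15. Asns, asparagine synthetase, was at 0.33 and 0.05 at 10 weeks and at -0.27 and -0.46 at 30 weeks in KO and A537T. Trib3, a pseudokinase, had 12.9 ± 1.60 in WT and 31.2 ± 6.06 in KO at 10 weeks without overlap (log2 fold change 1.21, adjusted p by limma of 0.183), 0.72 in A537T at 10 weeks, and 0.63 and -0.18 at 30 weeks. Ddit3, which encodes the stress factor CHOP, was at -0.17, 0.13, 0.51 and 0.07 and Chac1, a glutathione-degrading enzyme, at -0.17, -0.38, 1.12 and 0.43 in the same order of KO and A537T at 10 weeks and at 30 weeks.

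The gene most alike to each of the 9 in its pattern was sought among about 11270 genes by Pearson correlation of log2(CPM + 1) over the 18 libraries, which share tissue content and, within an age, the WT controls. It was Abca3 for Phgdh (0.95), Hoxb9 for Psat1 (0.97), Galk2 for Shmt1 (0.97), Clcn5 for Shmt2 (0.98), Slc11a2 for Mthfd2 (0.95), Itpr2 for Mthfd1l (0.87), Clip2 for Aldh18a1 (0.96) and Agr2 for Pycr1 (0.88). Psph had no near match, with Nr6a1 highest at 0.63.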

How the data were processed

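The authors sequenced RNA of the prostate lobes, trimmed the reads with Trim Galore 0.4.1 and cutadapt 1.18, aligned them with STAR 2.7.3a to GRCm38.p6 and quantified genes with Salmon, tools and versions being those named in the submitters' processing notes. The deposited values are a signal, namely normalized counts that the authors obtained with DESeq2 1.26 by a size factor for each library, in 4 tables of 6 libraries that were scaled separately. Other tables hold the authors' own fold changes and s-values and were not used. The columns name libraries but neither genotype nor replicate. A column was given a group from its table and from whether both tables of that age contain it, as WT libraries do, and was given no replicate number. Of the 55469 gene IDs, 54450 matched the annotation exactly and 55107 without versions.

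WT libraries served as controls within a table. On log2(normalized count + 1), genes whose mean was at least 10 were fitted with limma 3.58.1 in R 4.3.3, its eBayes step allowing for a trend with the mean. Adjusted p are Benjamini-Hochberg values over every gene fitted and were held against 0.05. Fold changes on this scale are understated for low genes. The change between ages within a line is an interaction contrast over 12 libraries. The labels do not say outright that libraries are separate mice, so p-values measure the spread between libraries. Ratios were compared with exact permutation tests, two-sided.

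CPM were computed from the normalized counts of a library, for WT from the KO table of its age. Whole reads were recovered as multiples of the value of 1 read (at least 99.981% of values within 0.01 of a whole read) for edgeR 4.0.16 and DESeq2 1.42.0 as alternatives. In 4 columns the size factor was too near 1 for that step to be tested automatically. The recovered reads of the WT libraries differed between the tables of an age for 53.6 to 64.1% of genes, and by up to 7.60% for the 9 genes. Gene positions and exon lengths came from GENCODE vM21 and promoter windows from RefSeq. Further alternatives were pseudocount 8, minimum means of 1 and 100, scaling to the same total with or without muscle and seminal vesicle genes, quantile normalization, no mean trend, tissue covariates and leaving out libraries. The limma step was tested on simulated data. Python 3.11.15, numpy 2.4.6, pandas 2.3.3 and matplotlib 3.10.9 were used.

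The 9 genes and all lists were chosen with earlier results of these data known, and the lists were written by hand. Named are the 9 genes, Elac2, Atf4, Asns, Trib3, Chac1 and Ddit3, the largest rise and fall of each other list in each comparison, and the gene most alike to each of the 9. Marker genes and the split at 4% were chosen outside this rule, with values seen. Some results that this rule and the planned ratios would include are not reported here.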

Additional observations from a re-analysis of the deposited data

Results flagged for a closer look

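At 10 weeks 2 of the 9 genes lay on opposite sides of the shared WT mean in the mutant lines, with all 3 KO libraries above it and all 3 A537T libraries below it on the log2 scale. The pattern was sought among the 9 genes only. Its share over all genes tested was not determined, so it is not known whether 2 of 9 is unusual. The KO change exceeded the A537T change by 1.43 for Shmt2 and by 0.33 for Aldh18a1. The difference was not tested, both lines use the same WT libraries, and the seminal vesicle share was 6.55 to 10.3% in these KO libraries and at most 0.191% in these A537T libraries, whose part in it was not tested.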

How the results depend on the processing

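No paired analysis was possible because the columns of the tables carry no replicate numbers. With 3 libraries a group, and tissue content that differs between libraries, the intervals of several genes were wide. That of Psat1 in KO at 30 weeks, for example, was -1.12 to 2.62 by limma. The values below are log2 fold changes unless named as counts. The 0 genes called by limma at an adjusted p under 0.05 became 715, 90, 285 and 476 with DESeq2 on the recovered reads (KO and A537T at 10 weeks, then KO and A537T at 30 weeks), 1 in KO and 2 in A537T at 10 weeks without the mean trend, 2 in A537T at 10 weeks with a minimum mean of 1, and 3 with the seminal vesicle covariate and 1 without the libraries above 4% in A537T at 30 weeks. Leaving out each library in turn gave 0 to 2886 calls for KO and 0 to 50 for A537T at 10 weeks (the most without 10AF, and 185 for KO without 14AF), 0 to 944 for KO and 0 to 1224 for A537T at 30 weeks (the most without 5AF and 8AF), and 0 to 30 and 0 to 390 for the change between ages of KO and A537T (without 14AF and 8AF, with 12 in KO without 5AF and 11 in A537T without 10AF). The cause was not tested.

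The median of the 9 genes was 0.37 in KO at 10 weeks with scaling to the same total, and at 30 weeks -0.32 in KO with the seminal vesicle covariate, -0.28 in KO and -0.10 in A537T without the libraries above 4%, and between 0.063 and 0.30, -0.19 and -0.019, -0.068 and 0.35 and -0.090 and 0.36 when single libraries were left out of the 4 comparisons. Phgdh in A537T at 30 weeks passed the threshold with DESeq2, at -0.52. Scaling to the same total moved the median of all genes by 0.21 in KO and 0.14 in A537T at 10 weeks (0.20 in KO also without muscle and seminal vesicle genes, which moved A537T at 30 weeks by 0.10) and by -0.22 and -0.11 for the change between ages in KO and A537T. Of 1019 values of single genes under the other alternatives 952 kept their direction and their side of the threshold, 66 took the other sign and 1 passed the threshold.

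Those that took the other sign were the following. In KO at 10 weeks they were, with the same total, Shmt1 at 0.18, Psph at 0.12, Ddit3 at 0.038 and Chac1 at 0.036, and without muscle and seminal vesicle genes 0.18, 0.12, 0.032 and 0.030, with quantile normalization Shmt1 at 0.041, with the muscle covariate Chac1 at 0.31, and with the seminal vesicle covariate Chac1 at 0.32 and Mthfd1l at -0.0041. In A537T at 10 weeks they were, with the same total, Psat1 at 0.10, Aldh18a1 at 0.033, Pycr1 at 0.064 and Phgdh at 0.074, without muscle and seminal vesicle genes Psat1 at 0.00065, with quantile normalization Mthfd2 at -0.0095 and Serinc3 at 0.031, and Mthfd2 at -0.13 with edgeR and also with DESeq2. With the muscle covariate they were Prodh at -0.25, Mthfd2 at -0.50, Serinc3 at 0.14, Pycr1 at 0.46, Chac1 at 0.079, Psph at 0.036, Asns at -0.29 and Phgdh at 0.067, and with the seminal vesicle covariate Psat1 at 0.17.

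In KO at 30 weeks they were, with the seminal vesicle covariate, Folr1 at -1.60, Mthfd2 at -0.42, Psat1 at -0.66, Aldh18a1 at -0.0062, Shmt2 at -0.37 and Atf4 at -0.20, and without the libraries above 4%, an alternative chosen after seeing the data, Mthfd2 at -0.58, Psat1 at -0.91, Aldh18a1 at -0.021, Sfxn3 at -0.054, Shmt2 at -0.46, Chac1 at -0.17, Aldh4a1 at -0.015, Atf4 at -0.26, Phgdh at 0.011 and Mat2a at 0.032. In A537T at 30 weeks they were Ddit3 at -0.061 with quantile normalization, P4ha1 at -0.19 with the muscle covariate, with the seminal vesicle covariate Folr1 at -0.69, P4ha2 at 0.046, Elac2 at 0.19, Psat1 at -0.81, Aldh18a1 at -0.0049, Pycr1 at 0.18, Shmt2 at -0.065 and Chac1 at -0.67, and without the libraries above 4% P4ha2 at 0.039, Elac2 at 0.23, Psat1 at -1.04, Aldh18a1 at -0.019, Pycr1 at 0.27, Sfxn3 at -0.057, Shmt2 at -0.14 and Chac1 at -0.90. For the change between ages in KO, Aldh18a1 was at -0.22 with the same total and at -0.032 with quantile normalization.

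Leaving out each library turned the sign in at least 1 fit for Shmt1 (-0.29 to 0.23), Chac1 (-0.62 to 0.083), Atf4 (-0.032 to 0.053) and Phgdh (-0.054 to 0.13) in KO at 10 weeks, for Mthfd2 (-0.52 to 0.35), Shmt1 (-0.18 to 0.32), Psat1 (-0.57 to 0.53), Pycr1 (-0.38 to 0.12), Psph (-0.39 to 0.037), Asns (-0.084 to 0.28) and Phgdh (-0.16 to 0.011) in A537T at 10 weeks, for Mthfd2 (-0.068 to 0.81) in KO at 30 weeks, and for Mthfd2 (-0.061 to 0.59), P4ha1 (-0.15 to 0.45), Psat1 (-0.09 to 1.30), Ddit3 (-0.065 to 0.16) and Chac1 (-0.37 to 1.10) in A537T at 30 weeks. It did so for the change between ages of Psat1 (-1.29 to 0.15), Aldh18a1 (-0.087 to 0.12) and Shmt2 (-0.77 to 0.16) in KO and of Mthfd2 (-0.076 to 0.87), Psat1 (-0.053 to 1.34) and Psph (-0.70 to 0.096) in A537T. Of the log2 ratios it did so for Shmt2 to Shmt1 (-0.76 to 0.16) and Mthfd2 to Mthfd2l (-0.52 to 1.13) in A537T at 10 weeks and for Mthfd2 to Mthfd2l in KO (-0.61 to 0.73) and A537T (-0.51 to 0.52) at 30 weeks, and in the other ratios the sign held.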
